A study of Mus musculus with 9 samples.

Results

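Cytosolic ribosomal protein genes were followed in brown adipose tissue (BAT), the heat-producing fat of rodents, at room temperature and after acute cold. The members were taken by name: gene symbols beginning with Rps, Rpl or Rplp and a digit, together with Rpsa, leaving out pseudogene names containing -ps, the ribosomal protein S6 kinases and Rps19bp1. The rule found 90 genes among the 16937 listed in any table, 36 named for the small ribosomal subunit and 54 for the large one, and all 90 were tested in each comparison. Of these, 77 are the standard proteins of the ribosome and 13 are paralogs or retrotransposed copies of them. An annotation of an older genome build calls 6 of the 13 processed pseudogenes, so these entries may hold reads that belong to their parents.

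Each cytosolic ribosome carries one copy of nearly every one of these proteins, assembled with ribosomal RNA in the nucleolus. In mammals their transcripts are abundant, and most begin with a C followed by a run of pyrimidines, the 5′ terminal oligopyrimidine (TOP) motif, through which the kinase mTORC1 and the binding protein LARP1 control how well they are translated. GCN2, encoded by Eif2ak4, is a kinase that senses uncharged transfer RNA and lowers general translation by phosphorylating eIF2α. Brown adipocytes answer cold with uncoupled respiration through UCP1, and with a broad change in transcription.

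RNA was sequenced from BAT of 9 adult mice on the C57Bl/6J background, 3 in each of 3 groups, aged 12 to 23 wk and of both sexes, with no sex given per library. WT RT mice were wild type and stayed at 23 °C, while WT Cold (wild type) and GCN2 KO Cold mice (whole body Gcn2 -/-) were moved to 4 °C for 8 h with free access to food. The mice of every group had first been housed singly for 5 days, and no GCN2 KO libraries at room temperature were used here, so genotype was compared only in the cold. The deletion was in the whole body, so every cell type of the tissue carried it. Values are named normalized counts (the deposited read counts divided by a size factor per library, set within each 2-group table) or CPM (a gene's reads scaled to a common library total), and the letters A, B and C tell the libraries of a group apart.

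The libraries held 27058799 to 30768064 reads on genes, and 80 of the 90 members had over 1000 reads in every library. Eif2ak4 had 171 to 231 normalized counts in WT Cold and 347 to 371 where the label reads GCN2 KO Cold, so it was not lower under the label that gives a deletion. The log2 fold change was 0.78 (adjusted p = 0.0932, limma, and 0.00271 with DESeq2). Against WT RT it fell in WT Cold by 0.59 on the log2 scale (adjusted p = 0.0294, limma) and was at 0.19 in GCN2 KO Cold (adjusted p = 0.26, limma), with overlapping libraries. Its reads come from the whole gene, and reads from exons outside the deleted part check nothing. One sample of that group carries a title that names both genotypes, whereas its genotype field reads GCN2 KO. Brown adipocyte markers were abundant in all libraries (Ucp1, Cidea, Fabp4 and 9 more, 2.01 to 3.22% of reads in sum), and none was at 0. The library codes of WT RT begin with another prefix than those of the cold groups. What the prefix stands for is not given in the sources used here, and whatever it marks cannot be told apart from cold. In whole tissue, fewer cells of a type and less RNA per cell cannot be told apart either.

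The TOP motif, where a transcript has one, lies at its very start, and the sequences below show the annotated start for members with large or outlying values and for examples with long and short runs. RefSeq promoters on GRCm38.p6 were matched for 66 of the 90 members. Each window runs from 10 bases before the annotated start through the first 20 bases of the transcript, on the coding strand, and capitals mark its longest run of C and T. The start itself is the 11th base of each line, so a run may lie before, across or after it, and a marked run is not by itself a TOP motif. Where a gene had several annotated starts, the one with the longest run is shown. Rps6, the S6 kinase substrate, Rpl13a, Rps27, Rps9, Rpl27a and Rps18 hold a long run, and Rps28, Rpl9 and Rpl3l hold a short one.
Rps6: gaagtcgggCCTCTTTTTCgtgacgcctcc
Rps9: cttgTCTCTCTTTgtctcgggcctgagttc
Rps27: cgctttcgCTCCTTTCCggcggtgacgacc
Rpl13a: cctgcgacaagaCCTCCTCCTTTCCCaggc
Rpl27a: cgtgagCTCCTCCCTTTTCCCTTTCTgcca
Rps18: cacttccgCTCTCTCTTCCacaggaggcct
Rps28: cgcgtgcggTCTCgcgagagcgaaagtgag
Rpl9: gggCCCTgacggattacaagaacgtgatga
Rpl3l: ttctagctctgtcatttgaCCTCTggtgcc
The windows lie at chr4:86857348-86857377 (Rps6, minus strand), chr7:3704031-3704060 (Rps9, plus), chr3:90213629-90213658 (Rps27, minus) and chr7:45128726-45128755 (Rpl13a, minus). The others lie at chr7:109519185-109519214 (Rpl27a, plus), chr17:33955646-33955675 (Rps18, minus), chr17:33824543-33824572 (Rps28, minus), chr5:65391412-65391441 (Rpl9, minus) and chr17:24727816-24727845 (Rpl3l, plus).

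A run of at least 8 pyrimidines stood in this window in 25 of the 66 members (37.9%), against 13.01% of the 27025 genes with a RefSeq promoter. The letters CTTTC were in the window of 24.2% of members and 4.43% of all genes, and CTTCC in 22.7% and 7.49%. Over the whole promoter, from 250 bases before to 50 bases after the start and on both strands, CCGGAAG, the core bound by ETS family factors, stood in 39.4% of members and 9.93% of all genes. Its reverse complement contains CTTCC, so the counts of these 2 strings are not separate. The GC box letters GGGCGG were in 59.1% and 38.2%, the YY1-type letters AAGATGG in 15.2% and 7.28%, and TATAAA (coding strand) in 10.6% and 9.77%. These are matches of letters, not bound sites. A window without a run says only that these letters are not there.

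The members differed in level by orders of magnitude. Per kilobase of the gene's median annotated coding transcript, the highest mean over the 9 libraries was that of Rplp1 (875 CPM per kilobase), then Rpl41 (855) and Rplp2 (840). Rplp1 and Rplp2 are the acidic stalk proteins of the large subunit that recruit translation factors. The median over the members was 288 CPM per kilobase. The lowest were copies and paralogs: Rpl6l was at 0.955, Rpl32l at 1.65, Rps3a3 at 2.02, Rps3a2 at 2.11, Rpl39l at 7.23, Rpl37rt at 9.65 and Rpl3l at 10.05 CPM per kilobase. Rps15a (31.4) and Rps20 (61.2) rank low on this scale because long annotated transcripts, of 5130 and 3706 bases, enter their length. On the plain CPM scale, without length, Rps2, Rplp0, Rpsa and Rpl41 were the most abundant members. Rps2 lies at the messenger RNA entry side of the small subunit, and its level was 516 ± 27.2 CPM (SD, n = 3) in WT RT, and 629 ± 48.6 and 610 ± 40.1 in the wild-type and GCN2 KO cold groups.

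Summed over the 90 members, the family took 1.99, 1.94 and 1.72% of reads in the WT RT libraries A, B and C. It took 2.10, 2.28 and 2.15% in WT Cold, and 2.08, 2.07 and 2.36% in GCN2 KO Cold. Every cold library lay above every WT RT library, library C was the lowest of WT RT and the highest of GCN2 KO Cold, and the cold groups overlapped. With 3 libraries against 3, the smallest 2-sided p an exact permutation test can give is 0.1, so these shares were not tested. The median coefficient of variation of a member's CPM was 4.60% in WT Cold, 8.63% in WT RT and 8.14% in GCN2 KO Cold.

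**Figure D1:**
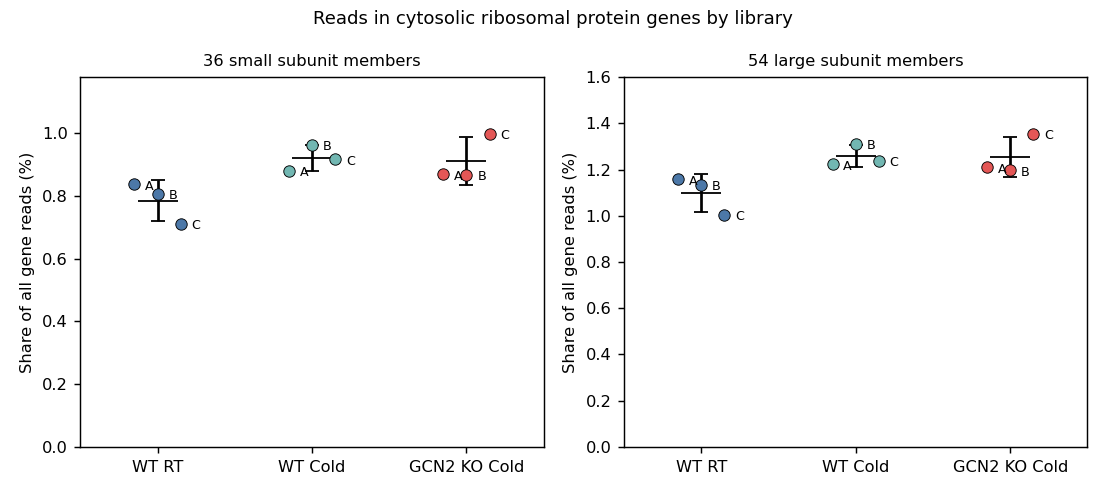
Share of all gene reads (%) taken by the 36 small subunit members (left) and the 54 large subunit members (right) in each library. Points are the libraries A, B and C of each group, horizontal lines are means and bars are SD (n = 3). The small subunit runs from 0.711 to 0.999% and the large one from 1.004 to 1.36%, and in both every cold library lies above every WT RT library.

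WT Cold was compared with WT RT to ask how 8 h at 4 °C altered the ribosomal protein transcripts of wild-type BAT. The family was higher in the cold: 58 of the 90 members rose at an adjusted p under 0.05 (limma), none fell and 32 did not pass. Of all 16679 genes tested, 13.6% rose and 14.1% fell by the same rule. The changes were small. The median log2 fold change of the members was 0.28 (0.003 over all genes), the range was -0.30 to 0.59, 87 of 90 were above 0 (50.2% of all genes), and no member passed the additional fold threshold of the study, an absolute log2 fold change over 1, which 2.99% of all genes passed upward and 5.15% downward. Both subunits took part, with 22 of 36 small subunit and 36 of 54 large subunit members higher. In 72 members the 3 cold libraries all lay above the 3 WT RT libraries, which held for 22.8% of all genes.

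The count of calls varied more than the fold did. It was 58 with DESeq2 (57 of them the same members), which called 15% of all genes higher, and 52 with edgeR, which called 13.5% higher. It was 22 without WT Cold library B, 29 without WT RT library B and 28 without WT RT library C, settings under which 17.4%, 18.4% and 19.6% of all genes were called in either direction (27.7% with every library), while the members' median log2 fold change was 0.26, 0.29 and 0.25. Without a mean-variance trend it was 21 of 90, all higher, beside 21.1% of all genes in either direction. With plain CPM scaling it was 23 of 90, all higher, beside 26.8% of all genes in either direction. The median of all genes was then -0.08, and the members' median log2 fold change was 0.20.

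**Figure D2:**
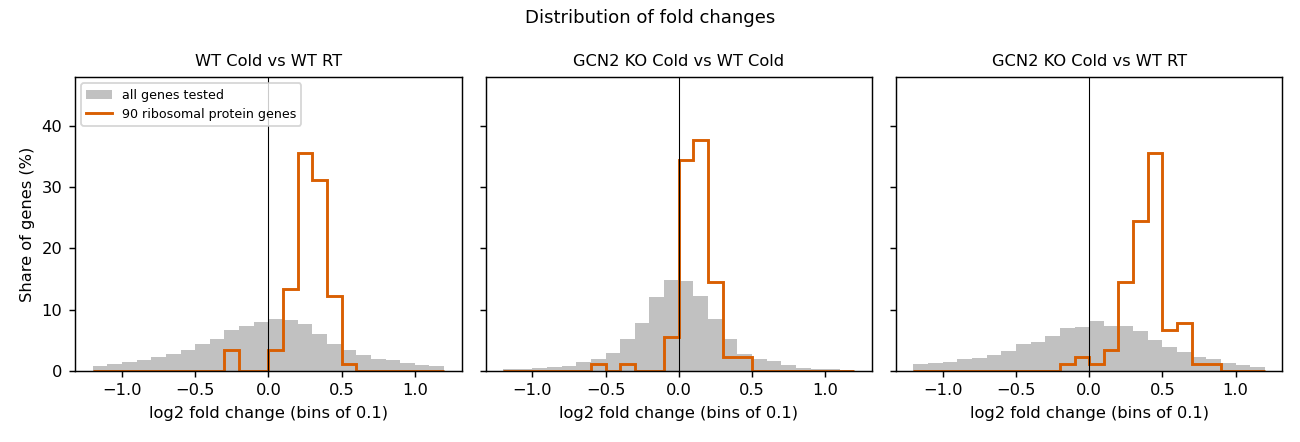
Share of genes (%) by log2 fold change in bins of 0.1, for the 90 ribosomal protein genes (orange line) and all genes tested (gray), in each comparison. The members form a narrow peak to the right of 0 in all panels, with medians of 0.28, 0.11 and 0.41 from left to right. Genes beyond ±1.2, among them Rpl3l in the middle and right panels, are outside the axes.

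Rps28, a small protein of the 40S subunit at the messenger RNA exit, showed the largest rise. It had 6496, 7724 and 7812 normalized counts in the WT Cold libraries and 5085, 5045 and 4454 in WT RT. All cold libraries lay above all WT RT libraries, and the log2 fold change was 0.59 ± 0.10 (SE, n = 3 per group; adjusted p = 0.00424, limma). Rps27, a zinc finger protein of the same subunit, had 7748, 8811 and 9065 normalized counts in WT Cold and 6793, 5942 and 5575 in WT RT. The groups did not overlap, and the log2 fold change was 0.49 ± 0.10 (SE, n = 3 per group; adjusted p = 0.0097, limma). Rpl13a, which also forms a complex that silences inflammatory transcripts, followed with a log2 fold change of 0.47 ± 0.08 (adjusted p = 0.00506, limma). Its cold libraries held 4335 to 4896 and its WT RT libraries 3145 to 3535 normalized counts. In the annotation of the older build, up to 29.4% of the bases in its annotated exons overlap another gene on the same strand. Its value is therefore uncertain.

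Rps6, the best known substrate of the S6 kinases, had 8873, 9070 and 9999 normalized counts in WT Cold and 7112, 7177 and 6673 in WT RT. The groups were apart by more than their own range, and the log2 fold change was 0.41 ± 0.07 (adjusted p = 0.00627, limma). Of the most abundant members, Rpsa, also known as the laminin receptor, rose by a log2 fold change of 0.42 and Rps2 by 0.37. The stalk proteins Rplp0, Rplp1 and Rplp2 rose by 0.29, 0.35 and 0.32, and Rps27a, made as a fusion with ubiquitin, by 0.41. Their adjusted p (limma) ran from 0.00686 for Rps27a to 0.0229 for Rplp0. Rpl41, the shortest protein of the ribosome, did not pass, with a log2 fold change of 0.23 ± 0.10 (adjusted p = 0.129, limma) and overlapping libraries.

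Among members with a mean of at least 50 normalized counts, the paralogs Rpl39l and Rps4l had the lowest values. Rpl39l, a paralog of Rpl39 best known from the testis, had 121, 129 and 134 normalized counts in WT Cold and 130, 191 and 156 in WT RT. The groups overlapped, and its log2 fold change was -0.30 ± 0.18 (adjusted p = 0.265, limma). Rps4l had a log2 fold change of -0.23 (adjusted p = 0.289, limma), with 827, 1215 and 1208 normalized counts in WT RT and 884 to 930 in WT Cold. WT RT library A was the low one there, and without it Rps4l passed the test at -0.42 (adjusted p = 0.0249, limma, in a range of 0.0249 to 0.589 over the alternatives). Rpl39 and Rps27l followed at 0.07 and 0.09, neither passing. Without the 13 paralogs and copies, 56 of 77 members rose, and the log2 fold change of all 77 was above 0.

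**Figure D3:**
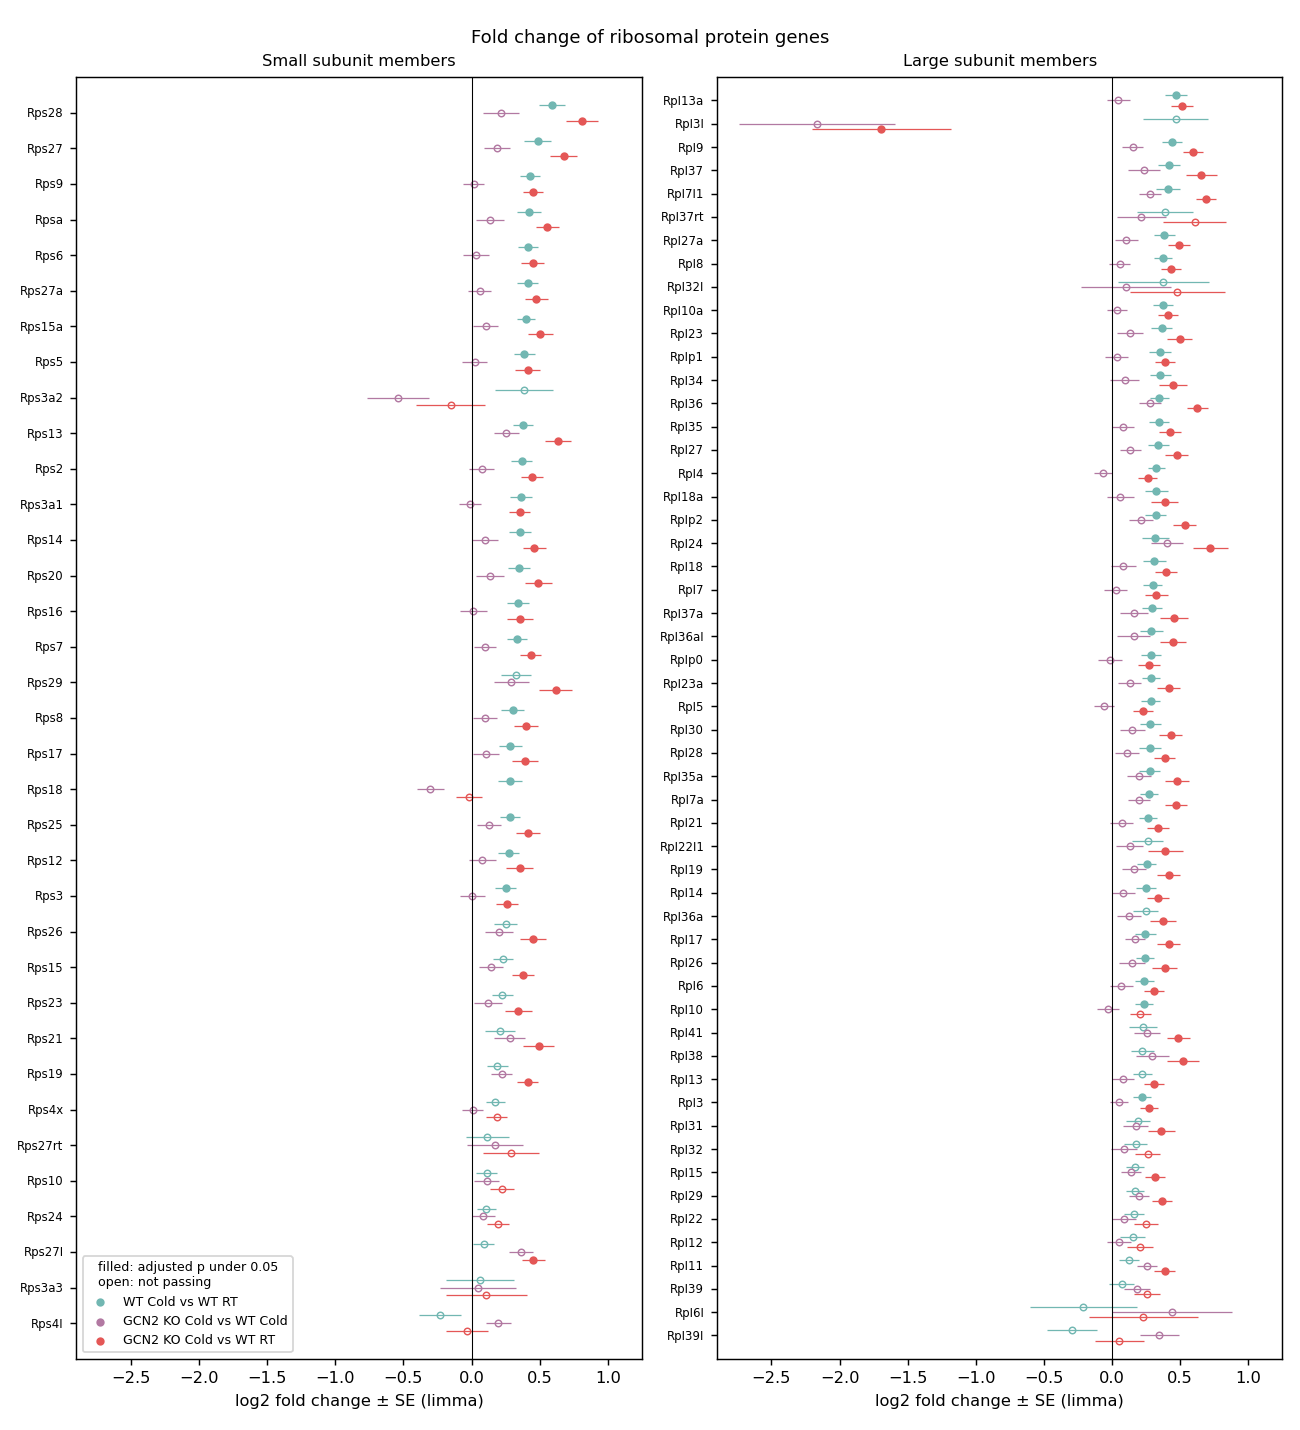
Log2 fold change with its SE (limma, n = 3 per group) for small subunit members (left) and large subunit members (right), ordered by WT Cold against WT RT. Filled points passed an adjusted p of 0.05 and open points did not. Rps28 leads the small subunit at 0.59, Rps18 and Rpl3l lie left of 0 in GCN2 KO Cold against WT Cold, and the standard members otherwise cluster between -0.07 and 0.81.

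The members were also read by pyrimidine run, with no test. The 25 members with a run of at least 8 were at 0.28 (median log2 fold change, WT Cold against WT RT), and the 40 with a shorter run (leaving out Rpl3l) 0.28. The same medians were 0.10 and 0.13 in GCN2 KO Cold against WT Cold, and 0.45 and 0.40 in GCN2 KO Cold against WT RT. Rps28 and Rpl9, at 0.59 and 0.44, show short runs in the sequences above, whereas Rpl27a, with 20 pyrimidines in a row, was at 0.38. Rps9, Rpl9 and Rpl27a were picked as examples after their values were seen.

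Members have short transcripts, with a median of 772.5 bases against 2484 over all listed genes. Among genes that are not members, 448 with transcripts under 1000 bases and a mean of at least 1000 normalized counts had a median of 0.18 for the log2 fold change in the cold, and 35.0% of them rose. The 71 members of that length had a median of 0.28, and 42 of them rose. These classes were chosen after values were seen, and the part of transcript length in the members' rise was not tested. Across 89 members, leaving out Rpl3l, Spearman's rho between transcript length and log2 fold change was 0.10, as a description of genes measured in the same libraries.

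**Figure D4:**
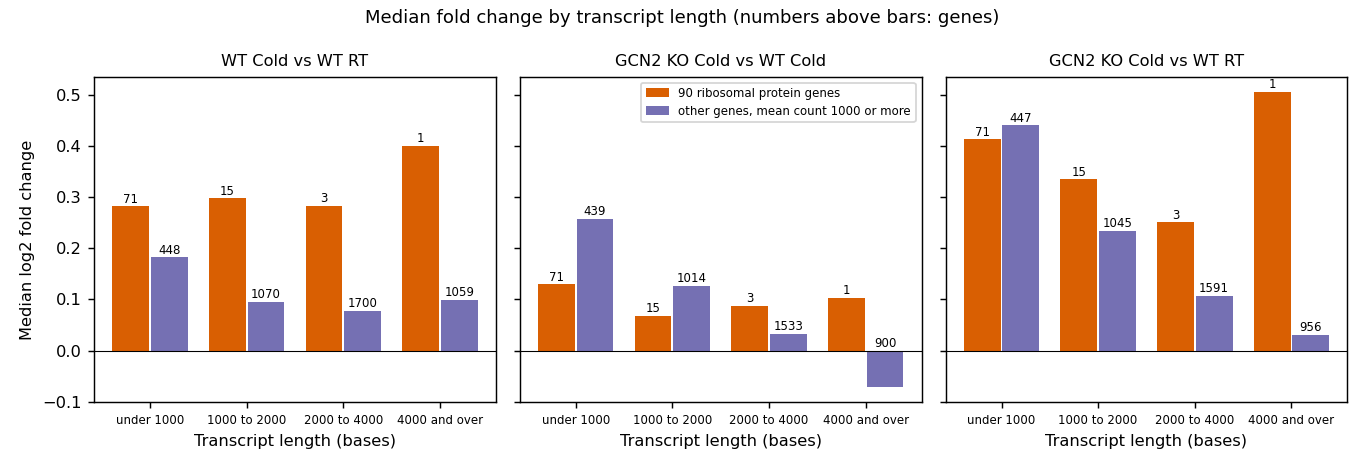
Median log2 fold change by transcript length class (bases) for the ribosomal protein genes (orange) and for other genes with a mean of at least 1000 normalized counts (purple), in each comparison. Numbers above bars are genes. In WT Cold against WT RT the members lie above the other genes in every class. Only 3 members fall in the class of 2000 to 4000 bases, and only 1 in the class of 4000 and over. In GCN2 KO Cold against WT Cold the short classes of other genes lie above the members (0.26 against 0.13 under 1000 bases).

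Other cell types shifted along with cold (13.6% of all genes rose and 14.1% fell). Monocyte and macrophage markers fell in 7 of 10, and their sum was 347 to 620 CPM in WT RT and 161 to 244 in WT Cold. Fibroblast markers fell in 4 of 6, from 1065 to 1237 down to 799 to 907 CPM in sum. Erythroid markers rose in 5 of 5, from 260 to 345 up to 572 to 2279 CPM, and endothelial markers in 3 of 6. Brown adipocyte markers rose in 6 of 12 and fell in 2, and skeletal muscle markers rose in 2 of 16. Of 9 lymphocyte markers tested, 1 fell. No marker of the other lists was at 0 in any library, and 1 lymphocyte marker had no reads listed in WT Cold. The part of these shifts in the members' rise was not tested.

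Proteins and factors that work with the ribosome were read from lists outside the naming rule. Fau and Rack1, which encode a small subunit protein fused to a ubiquitin-like domain and the scaffold at the head of the small subunit, rose by log2 fold changes of 0.36 and 0.34. Of 18 elongation factors and other TOP transcripts, 6 rose and 1 fell, beside 13.6% and 14.1% of all genes. The elongation factor subunit Eef1b2 rose by 0.41 and the nucleolar chaperone Npm1 by 0.45, whereas the histone chaperone Nap1l1 fell by 0.59 on the log2 scale. Eef1a1, the most abundant elongation factor, had a log2 fold change of 0.05 (adjusted p = 0.70, limma).

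Of 46 ribosome biogenesis genes, 24 rose and 1 (Dkc1) fell, with a median log2 fold change of 0.41. Nop2, an RNA methyltransferase of the large subunit precursor, had 1391, 1131 and 1184 normalized counts in WT Cold and 596, 607 and 665 in WT RT. The groups were far apart, and the log2 fold change was 0.98 ± 0.11 (SE, n = 3 per group; adjusted p = 0.000834, limma). Rrp12, needed for export of the subunits, rose by 0.85, and Polr1a, the largest subunit of RNA polymerase I, by 0.77. Of 80 mitochondrial ribosomal protein genes, which build the separate ribosome of the organelle, 14 rose and 4 fell, with a median of 0.08. Of all genes, 13.6% rose and 14.1% fell.

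Of 22 genes that regulate mTORC1 or TOP transcripts, 6 rose and 5 fell, beside 13.6% and 14.1% of all genes. The stress-induced mTORC1 inhibitors Ddit4 and Sesn2 rose by log2 fold changes of 1.69 and 1.26, and Deptor, another inhibitor, fell by 1.22. Larp1, which binds the TOP motif, had 3133, 3068 and 2958 normalized counts in WT Cold and 2193, 2246 and 2361 in WT RT. The groups did not overlap, and it rose by 0.43 ± 0.07 (SE; adjusted p = 0.00392, limma). These are transcript levels and give no measure of mTORC1 activity or of translation.

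GCN2 KO Cold was compared with WT Cold to ask whether the ribosomal protein transcripts depended on GCN2 during cold exposure. No member passed an adjusted p of 0.05 with limma or edgeR, and 1 (Rps27l) did with DESeq2. At an unadjusted p under 0.05 there were 17 of the 90 members, in either direction, beside 15.3% of all genes. Few genes passed at all with limma, 0.178% of 16312 higher and 0.227% lower, and 1.45% were higher with DESeq2 and 0.11% with edgeR. The added fold threshold was passed by 0.0613% upward and 0.196% downward. Of the 90 members, 23 were higher and 3 lower with no overlap between the groups, beside 11.3% and 10.7% of all genes. The members' median log2 fold change was 0.11 (-0.003 over all genes), and 82 of 90 were above 0 (49.5% of all genes). With plain CPM scaling the members' median was -0.0025 with 45 of 90 above 0, while the median of all genes moved down to -0.12. A change of scaling moves all genes of a library alike, so it cannot test the members' distance from all genes. The members' median was 0.05 without GCN2 KO Cold library C and 0.07 without WT Cold library A.

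Short transcripts lay higher in this comparison in general. The 439 other genes under 1000 bases with a mean of at least 1000 normalized counts had a median log2 fold change of 0.26, above the 0.13 of the 71 members of that length, and the 900 such genes of 4000 bases and over had -0.07. Across 89 members, Spearman's rho between length and log2 fold change was -0.43. The part of length in the members' shift was not tested.

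Rps18, a protein of the 40S head that touches the large subunit, was the standard member with the lowest value. It had 6375, 7334 and 7123 normalized counts in WT Cold. Libraries labelled GCN2 KO Cold had 5471, 5137 and 6317. The groups did not overlap, although the highest GCN2 KO Cold library came near the lowest WT Cold one. Its log2 fold change was -0.30 ± 0.10 (SE, n = 3 per group), and it did not pass (adjusted p = 0.217, limma). Next were Rpl4 at -0.07 and Rpl5 at -0.06, both with overlapping libraries.

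Rpl24, which bridges the subunits, was the highest of the well covered members. It had 2060, 2423 and 2829 normalized counts in GCN2 KO Cold and 1768, 1916 and 1803 in WT Cold, with no overlap. Its log2 fold change was 0.40 ± 0.12 (SE; adjusted p = 0.186, limma). In the annotation of the older build, 47.0% of the bases in its annotated exons are shared with another gene on the same strand. Its value is therefore uncertain. Rps27l (0.36), Rpl39l (0.34) and Rpl38 (0.30), the last a protein linked to translation of Hox transcripts, were next and did not pass (adjusted p = 0.14, 0.313 and 0.317, limma). Rps28, the top member of the cold comparison, was at 0.22 ± 0.13 (adjusted p = 0.491, limma).

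None of the 18 TOP transcripts, 46 biogenesis genes or 22 mTORC1 and TOP regulators passed (limma), with median log2 fold changes of -0.05, -0.08 and -0.06. Among these 3 lists, 3, 4 and 3 genes had an unadjusted p under 0.05, a rule that 15.3% of all genes met. Of 80 mitochondrial ribosomal protein genes, 2 rose (limma) and 78 were above 0, with a median of 0.26. In that list, 56 genes had an unadjusted p under 0.05, 61 were higher with no overlap between the groups, and 14 were called higher by DESeq2 and 1 by edgeR. None of 65 ribosomal protein pseudogenes passed (limma), with a median of 0.22, and 4 had an unadjusted p under 0.05.

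Cell type markers differed between the cold groups too, although none of these lists had a gene that passed with limma apart from muscle. Brown adipocyte markers summed to 31764 to 32222 CPM in GCN2 KO Cold and 26618 to 28840 in WT Cold, with 11 of 12 above 0, 7 at an unadjusted p under 0.05 and 4 called by DESeq2. Fibroblast markers summed to 527 to 687 and 799 to 907 CPM, with 6 of 6 below 0, 5 at an unadjusted p under 0.05 and 1 called by DESeq2. Endothelial markers summed to 573 to 686 and 730 to 853 CPM, with 5 of 6 below 0. These sums did not overlap between the groups, and their part in the members' values was not tested. Of the monocyte and macrophage markers 9 of 10 were below 0, with sums that overlapped (118 to 186 and 161 to 244 CPM), and all 5 erythroid markers were above 0, also with overlapping sums.

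GCN2 KO Cold was also compared with WT RT, which joins cold and genotype and shares its libraries with the other comparisons. In it, 72 members rose, 1 (Rpl3l) fell and 17 did not pass (limma), against 16.4% of 16560 genes higher and 17.8% lower. DESeq2 called 71 higher (16.6% of all genes) and edgeR 69 higher and 1 lower (15.5% of all genes higher). The groups did not overlap in 80 members that were higher and 1 that was lower (23.7% and 25.5% of all genes), and 86 had a log2 fold change above 0 (50.8%). The median log2 fold change was 0.41 (0.009 over all genes), with 28 of 36 small subunit and 44 of 54 large subunit members higher. With plain CPM scaling, 24 of the 90 rose, 1 fell and the median was 0.21, with all genes at -0.19 and 38.1% of them called in either direction. Other short genes with a mean of at least 1000 normalized counts had a median of 0.44 here, and 67.8% of those 447 genes rose, beside a median of 0.41 and 78.9% of the 71 members under 1000 bases.

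Other cell types differed between GCN2 KO Cold and WT RT as well (16.4% of all genes rose and 17.8% fell). Monocyte and macrophage markers fell in 9 of 10, to a sum of 118 to 186 CPM, and fibroblast markers in 4 of 6, to 527 to 687 CPM. Erythroid markers rose in 5 of 5, to 1084 to 2081 CPM. Brown adipocyte markers rose in 8 of 12 and fell in 1, and their sum was 31764 to 32222 CPM in GCN2 KO Cold and 20080 to 21824 in WT RT. Endothelial markers rose in 1 and fell in 1 of 6, and none of 10 lymphocyte markers passed (limma), with 1 at an unadjusted p under 0.05. The part of these shifts in the members' rise was not tested.

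Rps28 again had the largest value. Its counts were 7072, 7666 and 9529 in GCN2 KO Cold and 4792, 4758 and 4202 in WT RT. The groups were far apart, and the log2 fold change was 0.81 ± 0.12 (SE, n = 3 per group; adjusted p = 0.00154, limma). Rpl24 (0.72), Rpl7l1 (0.69) and Rps27 (0.68) followed. Rpl7l1, a paralog of Rpl7 found in precursors of the large subunit, had 3402 to 3647 normalized counts in GCN2 KO Cold and 2077 to 2330 in WT RT (adjusted p = 0.000526, limma). Rps18 was at -0.02 ± 0.10 (adjusted p = 0.898, limma), with overlapping libraries, and was the lowest standard member. Rps4l (-0.03) and Rpl39l (0.05) did not pass either.

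Among the paralogs, Rpl3l stood apart. It is the striated muscle form of Rpl3, which lines the peptidyl transferase center. In CPM it had 14.5, 14.5 and 11.7 in WT RT, 22.5, 21.3 and 11.3 in WT Cold, and 6.62, 5.21 and 1.33 in GCN2 KO Cold. Every library labelled GCN2 KO Cold lay below every wild-type library, and both wild-type groups overlapped. Its reads were 0.411 to 2.07% of those of Rpl3 in GCN2 KO Cold, 3.47 to 6.63% in WT Cold and 4.04 to 4.52% in WT RT.

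For Rpl3l the log2 fold change was -1.69 ± 0.51 (SE, n = 3 per group) in GCN2 KO Cold against WT RT, which passed both thresholds (adjusted p = 0.0336, limma), as did 7.58% of all genes downward and 3.01% upward. The call was lost with DESeq2, without a mean-variance trend and without any one WT RT library (adjusted p from 0.00477 to 0.0918 over all alternatives). Its log2 fold change ran from -2.13 to -0.99 over the alternatives, and at -0.99, without GCN2 KO Cold library C, it no longer passed the fold threshold. Against WT Cold it was -2.16 ± 0.57 and did not pass (adjusted p = 0.163, limma). In WT Cold against WT RT it was 0.47 ± 0.24 (adjusted p = 0.181, limma). Without WT Cold library C, the low one, it passed with a log2 fold change of 0.77 (adjusted p = 0.00245, limma, in a range of 0.00245 to 0.537 over the alternatives).

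Skeletal muscle markers moved with Rpl3l library by library. The sum of 16 of them, with Myh1, Acta1 and Ckm among them and none at 0, was 3436, 3055 and 2858 CPM in WT RT, 4499, 4046 and 2680 in WT Cold but 1537, 1178 and 367 in GCN2 KO Cold. Libraries C of both cold groups were the lowest of their group for Rpl3l and for the marker sum alike. In GCN2 KO Cold against WT RT, 14 of the 16 markers fell with limma, 8 with DESeq2 and 9 with edgeR (median log2 fold change -1.72). In WT Cold against WT RT, 2 rose and 15 were above 0, with a median of 0.26. Against WT Cold, 1 (Myh7) fell with limma, 5 with DESeq2 and 0 with edgeR, all 16 had an unadjusted p under 0.05, and the groups did not overlap for any of the 16, with a median of -2.00. The part of muscle RNA in the Rpl3l values was not tested.

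**Figure D5:**
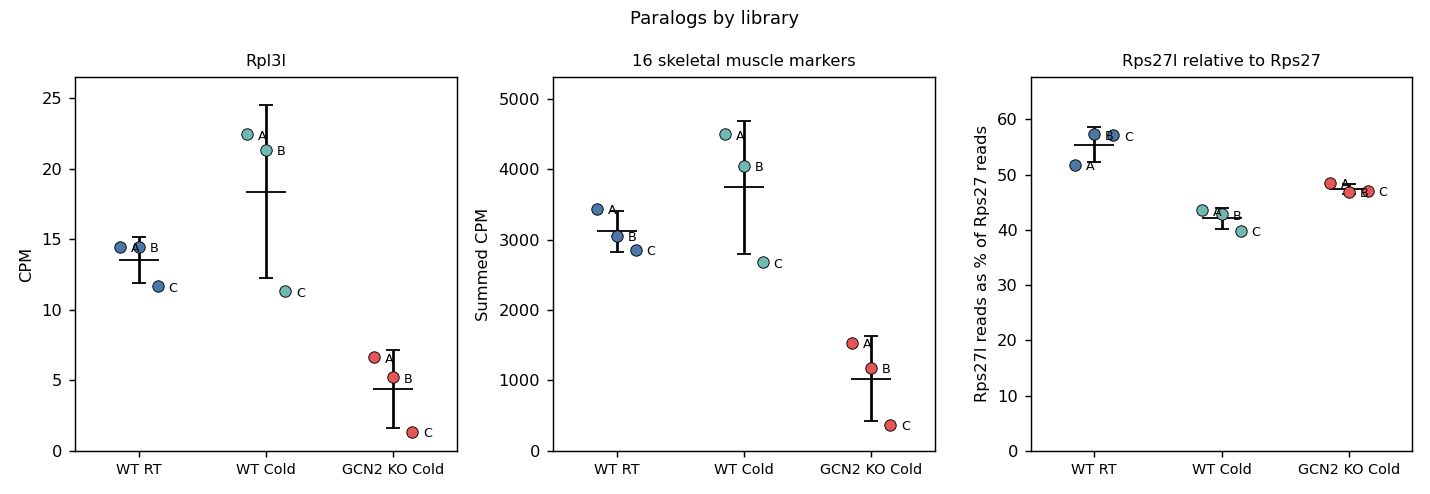
Rpl3l (CPM, left), the sum of 16 skeletal muscle markers (CPM, middle) and Rps27l reads as a percentage of Rps27 reads (right) in each library. Points are the libraries A, B and C of a group, horizontal lines are means and bars are SD (n = 3). The GCN2 KO Cold libraries are the 3 lowest for Rpl3l (1.33 to 6.62) and for the markers, and the groups do not overlap for the Rps27l share.

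The ratio of a paralog to its parent does not depend on how libraries are scaled, and it was computed for 13 pairs. Rps27l, a target of p53 that can take the place of Rps27 in the small subunit, had 51.8, 57.3 and 57.1% as many reads as Rps27 in WT RT. It had 43.6, 42.8 and 39.8% in WT Cold, whereas it had 48.5, 46.9 and 47.0% in GCN2 KO Cold. The 3 groups did not overlap, with WT RT highest, GCN2 KO Cold between and WT Cold lowest. With 3 libraries a group the smallest p of an exact permutation test is 0.1, so no pair could pass that test, and the ratios are given as a description. Rps27l is the one pair of the 13 whose groups were apart in all 3 comparisons.

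By level, Rps27l had 3375, 3771 and 3609 normalized counts in WT Cold and 3519, 3407 and 3183 in WT RT. The groups overlapped, with a log2 fold change of 0.09 ± 0.08 (adjusted p = 0.418, limma), while Rps27 rose. In GCN2 KO Cold it had 3978, 3847 and 4518, above the 3000, 3374 and 3206 of WT Cold in the same table. That log2 fold change of 0.36 ± 0.09 did not pass with limma (adjusted p = 0.14), and it is the 1 member that passed with DESeq2, at an adjusted p of 0.0497 (up to 0.387 over the other alternatives). Against WT RT, it rose in GCN2 KO Cold by 0.45 ± 0.08 (adjusted p = 0.00422, limma).

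Of the other pairs, Rpl22l1 had 23.3 to 32.8% and Rpl36al 103 to 127% of its parent's reads over all libraries, with overlapping groups. Rpl7l1 had 27.6 to 31.4% of the reads of Rpl7 in WT RT, 28.6 to 35.9% in WT Cold and 35.7 to 40.7% in GCN2 KO Cold, so GCN2 KO Cold lay above WT RT and overlapped WT Cold narrowly. The intronless copies Rps27rt, Rpl37rt, Rpl6l, Rpl32l, Rps3a2 and Rps3a3 reached at most 3.41% of their parents. Rps27rt had 1.26 to 1.56% of the reads of Rps27 in WT Cold, below the 1.65 to 1.89% of WT RT. Rps3a2 had 0.284 to 0.350% of the reads of Rps3a1 in GCN2 KO Cold, below both WT Cold (0.429 to 0.503%) and WT RT (0.414 to 0.530%) with no overlap. Reads of Rpl36al, Rps27rt, Rpl37rt and these copies may be split with near-identical parents, so their values are uncertain.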

How the data were processed

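Total RNA of BAT was selected with oligo-dT, made into libraries and sequenced in pairs. The study's methods do not state whether the libraries kept the strand. Per the labels and the study's methods, the authors trimmed reads with Trimmomatic 0.36, aligned them with STAR 2.5.2b (the processing notes name GRCm39), counted unique exonic reads with featureCounts of Subread 1.5.2 and compared groups with DESeq2. The deposited normalized signal is the count divided by a DESeq2 size factor, in 1 table for each pair of groups. The deposited log2 fold changes and p-values of the authors' own comparisons were not used, and 0 columns of other samples were present. Columns were tied to groups by their library codes and carry no mouse numbers, so libraries are lettered in code order. P-values set the difference between groups against the spread between the 3 libraries of a group, which limma moderates over all genes.

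Whole reads were recovered for 100% of values (within 0.01 reads). The test was limma 3.58.1 (R 4.3.3) with a mean-variance trend on log2(normalized count + 1), fitted to all genes of a table, 2-sided, with Benjamini-Hochberg adjustment and a threshold of 0.05. Fold changes are on that scale. DESeq2 1.42.0 and edgeR 4.0.16 on recovered reads, pseudocounts of 0.5 and 10, a mean count of at least 50, other scalings, no trend, a joint fit and leaving out each library were the alternatives. Leaving out the 13 paralogs and copies was added after seeing the data. The fits were tested on simulated data.

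The members and the lists were chosen with earlier results of these data known. Named genes were the 4 largest rises and 4 largest falls per comparison among members with a mean of at least 50, the 5 most abundant members, Rplp0, Rplp1, Rplp2, Rpsa, Rps6, Rps27a, paralogs with their parents, members past both thresholds, and up to 3 genes per other list. Others named were chosen after their values were seen. Lengths and gene overlaps come from GENCODE M21 (GRCm38) and were matched by gene; no coordinates were carried between builds. Some genes are not reported here by name or drawn singly, although counts and medians include them.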

Additional observations from a re-analysis of the deposited data

How the results depend on the processing

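Every WT RT library was somewhat deeper (30457428 to 30768064 reads) than every cold library (27058799 to 28947157 reads), so depth cannot be told apart from cold. Of the members, 10 were under 1000 reads in at least 1 library, and the effect of depth was not tested. No paired analysis was possible because the columns carry no replicate numbers. In WT Cold against WT RT, 58 members passed. The count was 23 with plain CPM scaling (26.8% of all genes called), 21 without a mean-variance trend (21.1%) and 0 with the added fold threshold (8.14%). It was 22 to 51 when each library was left out (17.4 to 34.0%). Shares of all genes in this paragraph are calls in either direction. The median log2 fold change of 0.28 was 0.20 with plain CPM scaling (all genes -0.08) and 0.25 to 0.33 without each library. In GCN2 KO Cold against WT Cold, the count of 0 was 1 with DESeq2 and 0 to 0 without each library. The median of 0.11 was -0.0025 with plain CPM scaling (all genes -0.12) and 0.05 to 0.16 without each library. In GCN2 KO Cold against WT RT, the count of 73 was 25 with plain CPM scaling (38.1%), 1 with the added fold threshold (10.6%), and 60 to 72 without each library (25.5 to 31.8%). The median of 0.41 was 0.21 with plain CPM scaling (all genes -0.19) and 0.34 to 0.45 without each library.

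Of 915 recomputed values for 61 pairs of a named member and a comparison, 840 kept direction and side of the threshold, 51 lost the call, 3 gained it and 21 changed sign. Plain CPM scaling lowered the median of all genes in each comparison, as given above, and the members moved with it. With it, the log2 fold changes that turned in GCN2 KO Cold against WT Cold were Rplp1 (-0.084), Rps2 (-0.043), Rps27a (-0.055) and Rps6 (-0.084). Rpl39l turned to -0.15 in GCN2 KO Cold against WT RT and Rpl39 to -0.014 in WT Cold against WT RT. When single libraries were left out, GCN2 KO Cold against WT Cold ran from -0.077 to 0.035 for Rplp0, from -0.020 to 0.093 for Rplp1, from -0.0073 to 0.11 for Rps27a and from -0.048 to 0.088 for Rps6. GCN2 KO Cold against WT RT ran from -0.086 to 0.19 for Rpl39l, from -0.10 to 0.043 for Rps18 and from -0.22 to 0.062 for Rps4l. None of the values that changed sign had passed. The cause of the moves without single libraries was not tested.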
